A study of Mus musculus with 24 samples.

Results

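The 9 genes described here are CDK inhibitors and D cyclins, the genes that set whether a cell leaves the first gap phase of its cycle. They were chosen by symbol from the deposited gene table: Cdkn1b and Cdkn1c of the CIP/KIP inhibitors, the 4 INK4 inhibitors Cdkn2a, Cdkn2b, Cdkn2c and Cdkn2d, and the 3 D cyclins Ccnd1, Ccnd2 and Ccnd3. They are 9 of the 55487 genes in the table, and all 9 were measured in all 24 libraries and passed the filter on low counts. The choice used measured values, since the fall of Cdkn1c over the days of culture was one of the strongest in these data. Changes of Cdkn1c over time, and changes of the members from day 7 to day 10 within a genotype, are therefore described without a test.

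D cyclins bind the kinases Cdk4 and Cdk6 when growth factors act on a cell, and the complexes phosphorylate the retinoblastoma protein, which releases E2F factors and opens S phase. INK4 inhibitors bind Cdk4 and Cdk6 and keep the D cyclins away from them, whereas CIP/KIP inhibitors bind whole cyclin and kinase complexes, above all those of Cdk2. In myeloid cells grown with GM-CSF the same genes stand between expansion of the culture and terminal differentiation.

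The cells were dendritic cells grown from mouse bone marrow with supernatant that contained GM-CSF, a growth factor of myeloid cells. Control cultures (WT) came from mice labelled ARPC4 Flox/Flox CD11c-Cre -/-, and knockout cultures (KO) from mice labelled ARPC4 Flox/Flox CD11c-Cre +/-. All mice thus carried floxed alleles of Arpc4, which encodes part of the Arp2/3 complex that branches actin filaments, and the Cre recombinase was driven by the CD11c promoter, so deletion depends on cells that express CD11c. Marrow donors were 8 to 10 weeks old and of both sexes. Suspended cells were taken on days 7, 8, 9 and 10, with 3 mice in each of the 8 groups of 1 genotype and 1 day. Cells were replated in fresh medium on days 4 and 7, and whether the day 7 sample was taken before or after replating is not stated. Poly(A) RNA was sequenced in paired ends with strand kept, by kits of 2 kinds that the labels do not assign to libraries.

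Totals ran from 19952047 to 31049798 counts per library. Arpc4 itself, counted over the whole gene, was lower in each KO library than in any WT library of its day, but by little: 155 to 182 against 188 to 199 CPM on day 7 and 173 to 185 against 208 to 242 CPM on day 10. Plcb4 ran at 5.75 to 9.66 CPM in KO libraries against 0.37 to 0.96 CPM in WT libraries, so all 24 libraries separated by genotype label. In KO the mouse numbers went against a sex-linked gene, so libraries of 1 number may not come from 1 animal. The Y-linked gene Ddx3y was high in 1 library of each group, that of mouse 63 on every WT day, but in KO that of mouse 64 on days 7 and 9, mouse 68 on day 8 and mouse 67 on day 10. Summed TPM of 8 neutrophil markers was 5423 to 10973 on WT day 7 and 16583 to 22758 on WT day 10, and that of 8 macrophage markers was 6468 to 7104 and 4641 to 4889. In KO the ranges were 7584 to 21776 and 10529 to 20545 for neutrophil markers, and 6280 to 7758 and 4565 to 6228 for macrophage markers. S100a9 was the largest part of the neutrophil sum, at 2995 to 6232 and 9310 to 12627 TPM in WT. In WT 5 of the 8 neutrophil markers were higher on day 10 without overlap, while Ly6g, Retnlg and Cxcr2 overlapped. In KO 0 were higher without overlap and Retnlg was lower, at 68.8 to 116 and 18.3 to 44.7 TPM. From day 7 to day 10 the macrophage markers did not go 1 way: in each genotype Cd68, C1qb, C1qc and Csf1r were lower without overlap, Mrc1 was higher (137 to 151 and 273 to 279 TPM in WT) and the other 3 overlapped. Cd68 was the largest part of that sum, at 3580 to 3848 and 2125 to 2344 TPM in WT. The sum of 8 dendritic cell markers was 2071 to 2721 TPM on WT day 7 and 6404 to 8724 TPM on WT day 10, without overlap, and 2569 to 3512 and 5545 to 11833 TPM in KO. Of these markers Itgax, which encodes CD11c, measured 474 to 1117 TPM over all libraries, and Flt3 and Zbtb46 were low, at 0.39 to 3.76 and 0.68 to 10.2 TPM. Zbtb46 had a WT median of 0.87 TPM on day 7 and 4.34 TPM on day 10. Of the 8 dendritic markers, 7 were higher on WT day 10 than on WT day 7 without overlap. The other, Batf3, was lower, at 14.85 to 18.24 and 9.51 to 11.81 TPM. In KO 6 were higher without overlap and 0 lower. In these bulk samples, fewer cells of a type and less RNA per cell cannot be told apart.

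The 3 D cyclins rose together between day 7 and day 8 in both genotypes, and by median TPM over the 24 libraries they were the most abundant members (114 for Ccnd1, 60.8 for Ccnd2 and 62.6 for Ccnd3, against 32.6 for Cdkn2d, the highest of the inhibitors listed). Ccnd1 went from 56.8 ± 6.9 CPM (SD, n = 3) on WT day 7 to 186 ± 27.3 CPM on WT day 8. CPM here are read counts brought to 1 common total with TMM factors, and a call is a Benjamini-Hochberg adjusted p under 0.05 over 14535 genes in edgeR's quasi-likelihood test. Of the 8 members tested, 4 were called higher and 2 lower from day 7 to day 8 in WT, against 21.5% and 22% of all genes tested, and the same 6 genes were called in KO, against 21.1% and 20.9%. A change on day 8 was thus common, with 43.4% of all genes called in WT and 42% in KO. Summed cell type markers are given beside it, as values without a test. In WT, without overlap between the days, the dendritic marker sum was 2071 to 2721 TPM on day 7 and 3523 to 4305 TPM on day 8, that of 4 progenitor markers was 39.5 to 48.9 and 113 to 121 TPM, and that of 5 mast cell or basophil markers was 35.2 to 54.4 and 106 to 160 TPM, with Mcpt4 at 0 on day 8 in both genotypes. Cd74 was the largest part of the WT dendritic sum, at 1223 to 1748 and 2484 to 3156 TPM. Of the 8 dendritic markers, 5 were higher on WT day 8 without overlap and Batf3 was lower, at 14.85 to 18.24 and 12.14 to 13.7 TPM. In KO the same 3 sums overlapped between the days: 2569 to 3512 and 3166 to 6596 TPM, 75.4 to 255 and 110 to 322 TPM, and 44.2 to 178 and 122 to 289 TPM. Of the 4 progenitor markers, Kit and Cd34 were nonetheless higher on KO day 8 without overlap. Kit was at 1.99 to 4.4 and 9.4 to 15.16 TPM, and Cd34 at 0.99 to 2.55 and 3 to 10.2 TPM. No single dendritic, mast cell or basophil marker stood apart in this KO step. The macrophage sum on day 8 was 6722 to 7297 TPM in WT and 5563 to 8280 TPM in KO, and the neutrophil sum was 7647 to 10165 and 8747 to 14680 TPM, each overlapping its day 7 range. Single markers within these 2 sums stood apart all the same. In WT, 4 of the 8 macrophage markers were higher on day 8 without overlap (Adgre1, C1qa, Csf1r and Mrc1, the last at 137 to 151 and 341 to 412 TPM) and Cd68 was lower, at 3580 to 3848 and 2935 to 3084 TPM. In KO, 3 of the 8 were higher and 0 lower. Of the 8 neutrophil markers, Ly6g and Retnlg were lower without overlap in both genotypes, with Ly6g at 15.6 to 45.05 and 4.94 to 10.6 TPM in WT. The part of a changing cell mixture in these changes was not tested.

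Ccnd1, at chr7:144929931-144939925 on the minus strand of GRCm38, encodes cyclin D1. In WT it measured 50.7, 64.3 and 55.4 CPM on day 7 and 216, 162 and 179 CPM on day 8, in the order of mice 63, 65 and 66. In KO it measured 61.6, 56.3 and 57.0 CPM on day 7 and 216, 250 and 191 CPM on day 8, in the order of mice 64, 67 and 68. The lowest day 8 library stood far above the highest day 7 library in either genotype. The fold rise was 3.27 in WT (log2 1.71, SE 0.16, edgeR adjusted p = 6.4e-08) and 3.76 in KO (log2 1.91, SE 0.16, edgeR adjusted p = 2.0e-08).

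Ccnd2, at chr6:127125162-127152193 on the minus strand, encodes cyclin D2, a cytokine-induced D cyclin of blood cells. It had the largest rise of the 9 genes from day 7 to day 8 in each genotype. WT libraries measured 40.8, 40.2 and 40.3 CPM on day 7 and 231, 179 and 181 CPM on day 8. KO libraries measured 39.5, 38.6 and 31.2 CPM on day 7 and 217, 288 and 168 CPM on day 8. The WT libraries of day 7 were nearly equal, and no day 8 library came near them. The rise was 4.87-fold in WT (log2 2.28, SE 0.17, edgeR adjusted p = 3.4e-09) and 6.16-fold in KO (log2 2.62, SE 0.17, edgeR adjusted p = 8.1e-10).

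Ccnd3, at chr17:47505051-47599691 on the plus strand, encodes cyclin D3, the D cyclin found most widely in mature blood cells. WT libraries measured 76.2, 66.1 and 75.6 CPM on day 7 and 164, 124 and 160 CPM on day 8, a 2.06-fold rise (log2 1.04, SE 0.23, edgeR adjusted p = 0.00097). KO libraries measured 78.0, 140 and 107 CPM on day 7 and 152, 241 and 125 CPM on day 8, so that the groups overlapped. The KO rise of 1.60-fold (log2 0.68, SE 0.23, edgeR adjusted p = 0.020) was not called without mouse 64 (edgeR adjusted p = 0.082) or with only the groups compared (0.091), within a range of 0.0026 to 0.091 over 14 alternatives. Genes on the opposite strand overlap Ccnd1 (LTO1, with 9.85% as many counts in all) and Ccnd3 (Bysl, with 14.2%), and the strand setting of the counter is not given in the sources used here.

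Among the inhibitors, Cdkn1b and Cdkn2d fell from day 7 to day 8 in both genotypes while Cdkn2b rose. Cdkn1b, at chr6:134920401-134925513 on the plus strand, encodes p27, the inhibitor that accumulates in resting cells. It went from 48.9, 42.8 and 45.9 CPM on WT day 7 to 24.04, 25.9 and 27.5 CPM on WT day 8 (fold 0.56, log2 -0.83, SE 0.20, edgeR adjusted p = 0.0025). In KO it went from 36.6, 42.7 and 44.3 CPM to 25.1, 33.0 and 21.5 CPM (fold 0.645, log2 -0.63, SE 0.20, edgeR adjusted p = 0.017). The day 7 and day 8 libraries of a genotype did not overlap, and the KO call was lost without mouse 68 (edgeR adjusted p = 0.19). In limma on log2(TPM + 1), neither call passed (adjusted p of 0.059 in WT and 0.185 in KO), and over 14 alternatives it ran from 9.5e-06 to 0.059 in WT and from 0.0017 to 0.19 in KO. Its means on day 10, 48.7 CPM in WT and 40.5 CPM in KO, lay again within its day 7 range. The day 10 libraries were spread more widely than those of day 7, at 42.1 to 59.1 CPM in WT and 25.2 to 53.7 CPM in KO.

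Cdkn2d, at chr9:21288410-21291407 on the minus strand, encodes the INK4 inhibitor p19, which varies with the cell cycle. It measured 13.6, 16.4 and 19.8 CPM on WT day 7 and 9.75, 8.69 and 9.77 CPM on WT day 8 (fold 0.57, log2 -0.82, SE 0.23, edgeR adjusted p = 0.0063). KO libraries measured 14.01, 26.1 and 21.3 CPM on day 7 and 9.78, 13.2 and 8.11 CPM on day 8 (fold 0.51, log2 -0.97, SE 0.23, edgeR adjusted p = 0.0016). No day 8 library reached the lowest day 7 library of its genotype. The WT call was lost without mouse 65 (edgeR adjusted p = 0.061) or mouse 66 (edgeR adjusted p = 0.083), and in limma on log2(TPM + 1) (adjusted p = 0.080), within a range of 0.00054 to 0.083 over 14 alternatives.

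Cdkn2b, at chr4:89306299-89311039 on the minus strand, encodes p15, an INK4 inhibitor known as a target of TGF-beta signalling. Its counts were low, from 7 to 39 per library. It rose from 0.40, 0.51 and 0.51 CPM on WT day 7 to 1.15, 1.07 and 1.20 CPM on WT day 8 (fold 2.39, log2 1.25, SE 0.29, edgeR adjusted p = 0.0014). KO libraries went from 0.48, 0.43 and 0.47 CPM to 0.85, 1.31 and 1.10 CPM (fold 2.35, log2 1.23, SE 0.29, edgeR adjusted p = 0.0017). Cdkn2b was thus an INK4 gene whose change on day 8 had the sign of the D cyclins rather than of Cdkn2d.

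**Figure D1:**
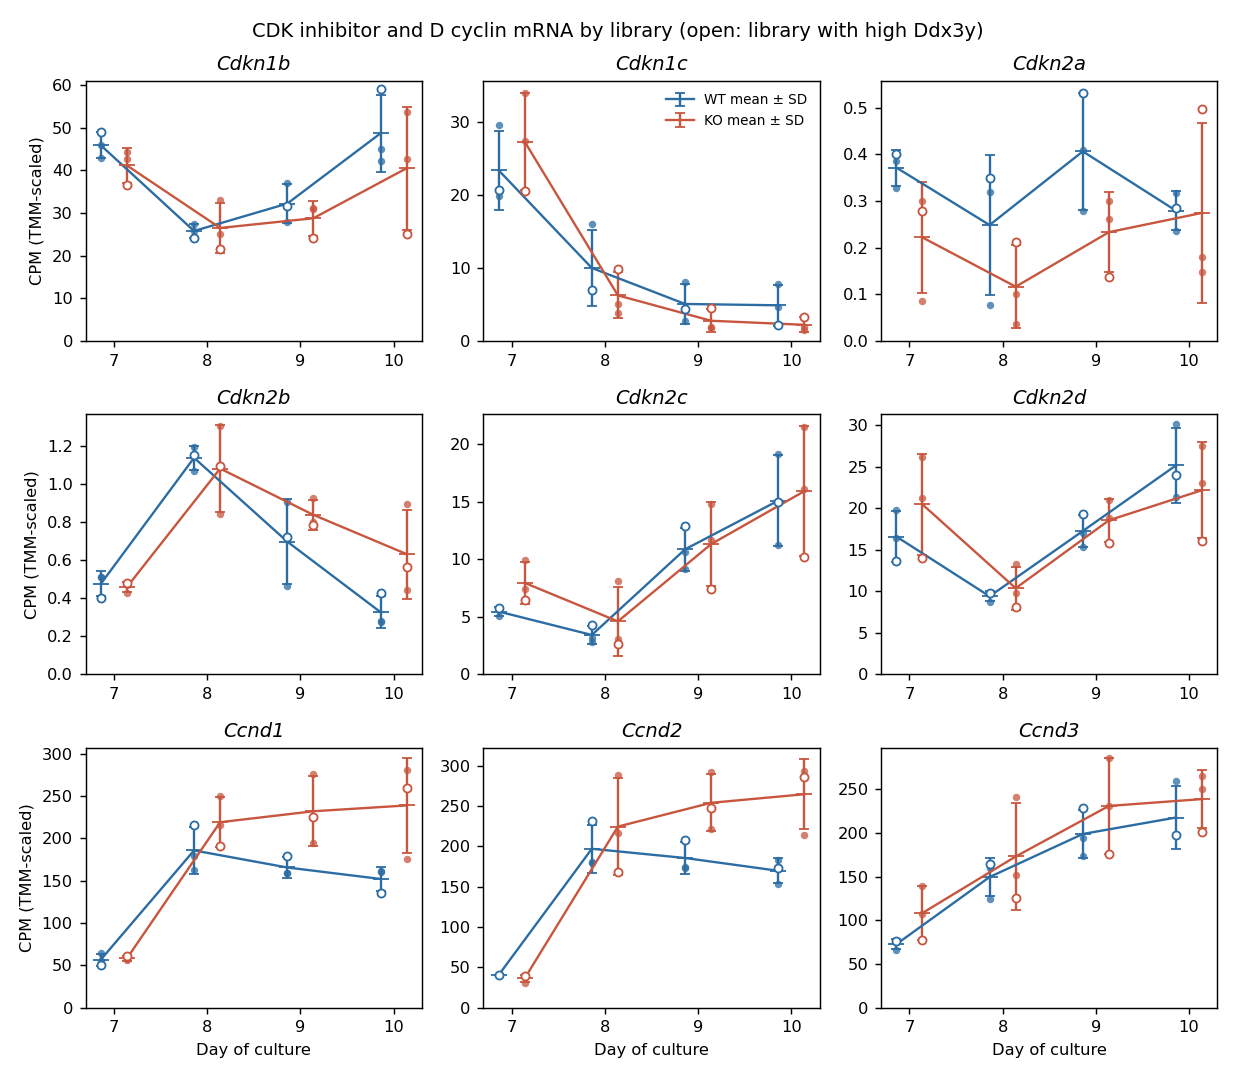
CPM of each of the 9 genes (vertical axes, from 0, each gene on its own scale) against the day of culture, for WT (blue) and KO (red). Points are libraries, open points the library with high Ddx3y in each group, and lines join means with SD over 3 mice. Ccnd1 and Ccnd2 stand at 31.2 to 64.3 CPM on day 7 and at 135 CPM or above afterwards, while Cdkn1c falls from 19.9 to 33.9 CPM on day 7 to 1.43 to 7.84 CPM on day 10.

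The order of the 8 groups differed between the genes. Ccnd2 means ran from KO day 10 (264 CPM) through KO day 9 (254), KO day 8 (224), WT day 8 (197), WT day 9 (186) and WT day 10 (170) to WT day 7 (40.4) and KO day 7 (36.5). Neighbours in this order overlapped in their libraries, except WT day 10 with WT day 7 and WT day 7 with KO day 7. Ccnd1 means followed a like order from 239 CPM on KO day 10 to 152 CPM on WT day 10, then 58.3 CPM on KO day 7 and 56.8 CPM on WT day 7, and the gap between WT day 10 and KO day 7 was the 1 without overlap among 7 neighbouring pairs. For Cdkn1b none of the 7 neighbouring pairs stood apart, from 48.7 CPM on WT day 10 to 25.8 CPM on WT day 8. For Cdkn1c the 1 such gap lay between WT day 7 and WT day 8.

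The promoters of these 3 inhibitors are shown because Cdkn1b and Cdkn2d fell on day 8 while Cdkn2b rose. Each line gives the 250 bases that precede the transcription start in RefSeq (GRCm38.p6), from 5′ to 3′ on the gene's strand, in lower case. Capitals mark matches of 5 searched motifs on either strand. The motifs were the E2F forms TTTCCCGC, TTTCGCGC, TTTGCCGC and TTTGGCGC, the STAT5 motif TTCNNNGAA, the FOXO motif GTAAACA, the CRE motif TGACGTCA and the CCAAT box. No match overlapped another, and a match is a description of letters, not of a bound factor.
Cdkn1b, chr6:134920151-134920400, plus strand: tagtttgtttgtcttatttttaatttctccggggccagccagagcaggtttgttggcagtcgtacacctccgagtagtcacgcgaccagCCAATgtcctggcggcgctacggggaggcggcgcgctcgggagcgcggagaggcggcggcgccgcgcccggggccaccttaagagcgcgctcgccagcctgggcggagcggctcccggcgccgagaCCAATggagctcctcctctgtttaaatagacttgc
Cdkn2d, chr9:21291210-21291459, minus strand: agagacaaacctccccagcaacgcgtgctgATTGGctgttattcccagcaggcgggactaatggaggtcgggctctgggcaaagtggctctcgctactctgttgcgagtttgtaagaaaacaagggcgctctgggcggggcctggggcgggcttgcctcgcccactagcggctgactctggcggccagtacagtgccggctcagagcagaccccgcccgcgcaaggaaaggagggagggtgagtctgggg
Cdkn2b, chr4:89311033-89311282, minus strand: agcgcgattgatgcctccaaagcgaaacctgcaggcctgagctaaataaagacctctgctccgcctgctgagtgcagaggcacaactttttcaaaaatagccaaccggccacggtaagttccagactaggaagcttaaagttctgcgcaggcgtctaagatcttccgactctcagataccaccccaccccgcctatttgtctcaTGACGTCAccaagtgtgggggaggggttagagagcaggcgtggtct
Cdkn1b holds the letters of the CCAAT box at -161 to -157 and again at -35 to -31, counted from the base before the start as -1. Cdkn2d holds the same box on the opposite strand, as ATTGG, at -220 to -216. The CCAAT box occurs in 33.8% of the 32851 promoters of the same length, so a match in these 2 is common. Cdkn2b holds the CRE at -46 to -39, a motif found in 1.55% of those promoters. The promoter table matched 6 of the 9 members. Among the others in it, the E2F form TTTCCCGC was found at -99 to -92 of the upstream start of Cdkn2a, where E2F forms occur in 1.86% of promoters. The FOXO motif, in 3.17% of promoters, was matched in 1 start of Ccnd3, and the STAT5 motif, in 7.02%, in no member start.

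Cdkn1c, at chr7:143458339-143461050 on the minus strand, encodes p57, the CIP/KIP inhibitor of the imprinted cluster on distal chromosome 7, expressed from the maternal copy. Its lower level on later days is what it was chosen for. WT libraries measured 20.7, 29.6 and 19.9 CPM on day 7, then 6.92, 16.004 and 7.10 CPM on day 8. They measured 4.39, 8.14 and 2.68 CPM on day 9 and 2.21, 7.84 and 4.61 CPM on day 10. On each of these WT days the library of mouse 65 was the highest. KO libraries measured 20.6, 33.9 and 27.4 CPM on day 7 and 5.11, 3.82 and 9.80 CPM on day 8. They then measured 4.55, 1.98 and 1.77 CPM on day 9 and 1.43, 3.34 and 1.86 CPM on day 10.

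No library of a later day reached the day 7 range of Cdkn1c in either genotype. From day 7 to day 10 the fold was 0.21 in WT (log2 -2.26, SE 0.49) and 0.081 in KO (log2 -3.63, SE 0.52). Among 11108 genes with an average log2 CPM above 1, this log2 change ranked 29 from the lowest in WT and 2 from the lowest in KO. The largest of the 3 day steps was the first, with log2 -2.14 (SE 0.48) in KO and -1.23 (SE 0.46) in WT. Without the library with high Ddx3y in each group the first step in KO was -2.77. The antisense gene Gm44732 overlaps Cdkn1c and had 1.59% as many counts.

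Cdkn2c and Cdkn2d rose between day 8 and day 9, after the D cyclins. Cdkn2c, at chr4:109660876-109667189 on the minus strand, encodes the INK4 inhibitor p18. It measured 5.78, 5.06 and 5.56 CPM on WT day 7, 4.33, 2.79 and 3.15 CPM on day 8, 12.9, 9.12 and 10.6 CPM on day 9 and 14.99, 11.2 and 19.1 CPM on day 10. WT day 7 stood above WT day 8 without overlap (log2 -0.67, SE 0.37, edgeR adjusted p = 0.15). This difference was called in 2 of 14 alternatives, with only the groups compared and without mouse 67 (edgeR adjusted p = 0.0089 and 0.025, within a range of 0.0089 to 0.39). The same KO step overlapped (log2 -0.77, SE 0.35, edgeR adjusted p = 0.087) and was called with no filter and without mouse 67 (edgeR adjusted p = 0.048 and 0.0020, within a range of 0.0020 to 0.35). Without mouse 67 it was log2 -1.26. From day 8 to day 9 Cdkn2c rose 3.16-fold in WT (log2 1.66, SE 0.36, edgeR adjusted p = 0.013) and Cdkn2d 1.84-fold (log2 0.88, SE 0.23, edgeR adjusted p = 0.031). These 2 of 8 members were called higher against 3.06% of all genes, and 5.4% in either direction. The Cdkn2d libraries of WT day 9 measured 19.3, 15.4 and 17.1 CPM. On WT day 9 the summed neutrophil markers were 11730 to 13563 TPM and the dendritic markers 5283 to 5848 TPM, both above WT day 8 without overlap, and the macrophage markers were 5291 to 5705 TPM, below WT day 8 without overlap. On KO day 9 these sums were 11526 to 15918, 4055 to 9667 and 5197 to 6597 TPM, each overlapping KO day 8. Single markers within them stood apart in KO all the same. The neutrophil markers Ly6g (6.29 to 9.11 and 13.56 to 18.11 TPM) and Ngp and the dendritic marker Itgax were higher on day 9. The macrophage marker Csf1r was lower, at 650 to 681 and 528 to 577 TPM. The part of these markers in the Cdkn2c and Cdkn2d changes was not tested.

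Over 14 alternatives the adjusted p ran from 0.00016 to 0.18 for Cdkn2c and from 0.00045 to 0.24 for Cdkn2d in this WT step, and from 0.0035 to 0.37 and from 0.0068 to 0.33 in KO. Both of these WT calls were lost when any 1 of the 3 WT mice was left out, with edgeR adjusted p of 0.14 to 0.18 for Cdkn2c and 0.20 to 0.24 for Cdkn2d. The WT call of Cdkn2d was lost in limma on log2(TPM + 1) as well, and so in 4 of the 14 alternatives. In KO, Cdkn2c measured 3.09, 8.08 and 2.66 CPM on day 8 and 7.47, 14.8 and 11.7 CPM on day 9, so that 1 library of day 8 exceeded 1 of day 9. Its KO difference was log2 1.29 (SE 0.35, edgeR adjusted p = 0.054) and that of Cdkn2d log2 0.84 (SE 0.22, edgeR adjusted p = 0.053). No member was called in this KO step in edgeR, where 2.33% of genes were, with 2 members at an unadjusted p under 0.05. Each of these 2 genes was called in 5 of the 14 alternatives. DESeq2's Wald test called both Cdkn2c (adjusted p = 0.0079) and Cdkn2d (adjusted p = 0.010). So did edgeR with no filter (0.0050 and 0.0068), with Xist as a covariate (0.041 and 0.022) and without mouse 67 (0.0035 and 0.017). With mouse as a replicate block Cdkn2c was called in edgeR (adjusted p = 0.0499), and Cdkn2d was called without the library with high Ddx3y in each group (adjusted p = 0.029).

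After day 8 no change of a D cyclin was called in the fit to all 24 libraries. Their WT log2 differences from day 8 to day 9 were -0.17 (SE 0.15) for Ccnd1, -0.09 (SE 0.16) for Ccnd2 and 0.41 (SE 0.22) for Ccnd3. Ccnd3 measured 228, 173 and 194 CPM on WT day 9, above each WT library of day 8 (edgeR adjusted p = 0.30). It was called with only the libraries of the groups compared (edgeR adjusted p = 0.036, within a range of 0.036 to 0.63 over 14 alternatives). From day 9 to day 10 no member was called in edgeR in WT, where 3.6% of genes were, or in KO, where 0.0963% were. An unadjusted p under 0.05 was found for 3 members in WT and 1 in KO. Cdkn2b had the lowest adjusted p of these, with 0.72, 0.47 and 0.91 CPM on WT day 9 and 0.43, 0.27 and 0.28 CPM on WT day 10 (log2 -1.08, SE 0.31, edgeR adjusted p = 0.060). Over 14 alternatives this adjusted p ran from 0.0496 to 0.40, and the change was called without mouse 64. Cdkn1b measured 31.7, 28.0 and 37.0 CPM on WT day 9 and 59.1, 44.96 and 42.1 CPM on WT day 10, without overlap (log2 0.60, SE 0.20, edgeR adjusted p = 0.11). It was called with no filter (adjusted p = 0.046), with only the groups compared (0.033) and without mouse 67 (0.016), within a range of 0.016 to 0.59. Cdkn2d was called in WT with only the groups compared (edgeR adjusted p = 0.047, range 0.047 to 0.58). In KO, Cdkn1b (edgeR adjusted p = 0.0056, range 0.0056 to 0.93) and Cdkn2c (0.016, range 0.016 to 0.998) were called without mouse 67. The early rise of Cdkn2b was followed by lower values on WT day 10 than on WT day 8 in all 3 mice.

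Cdkn2a, at chr4:89274471-89294653 on the minus strand, encodes p16 and Arf from 2 transcripts that gene counts do not separate. It lies 11645 bases from Cdkn2b. It had 1 to 15 counts per library and group means of 0.12 to 0.41 CPM. It was not called in any comparison in edgeR, and its intervals were wide at this depth. The WT step from day 7 to day 8 was log2 -0.57 with a 95% interval from -1.64 to 0.50.

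**Figure D2:**
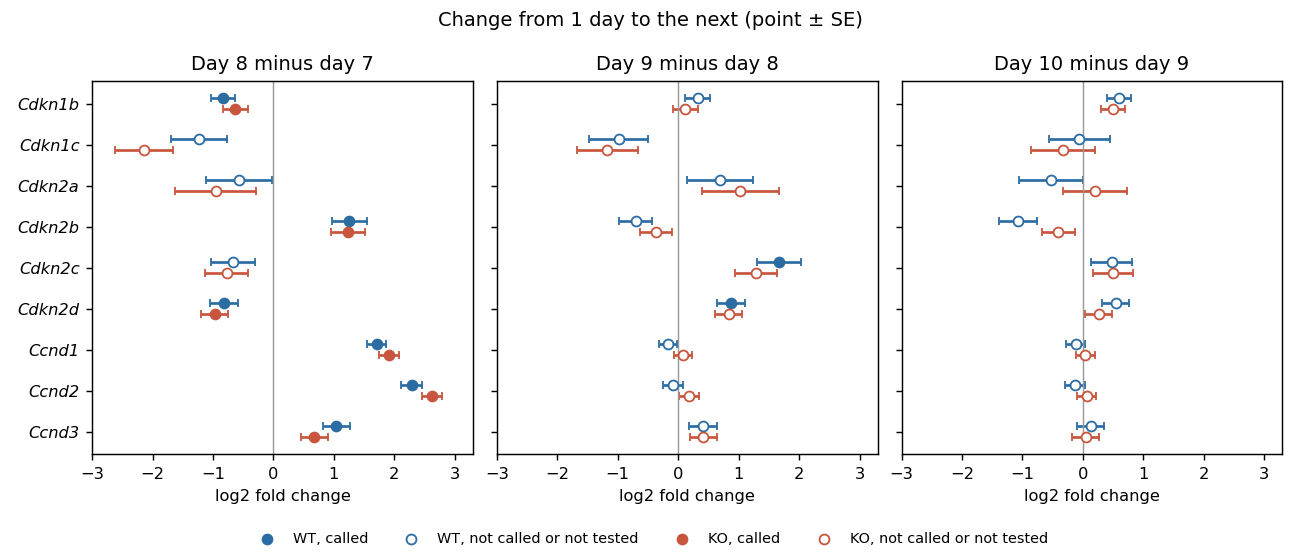
Log2 fold change from each day to the next (horizontal axes, point with SE) for the 9 genes (rows), WT in blue and KO in red, with filled points where edgeR called the change. Open points are not called or, for Cdkn1c, not tested. The D cyclins and Cdkn2b lie to the right in the first step, where Ccnd2 is at 2.28 in WT and 2.62 in KO, and Cdkn2c and Cdkn2d lie to the right in the second.

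On a scale per gene length, TPM, the summed D cyclin mRNA went from 65.4 ± 2.80 TPM (SD, n = 3) on WT day 7 to 240 ± 32.9, 249 ± 27.4 and 242 ± 7.39 TPM on the next 3 days. In KO it was 79.3 ± 11.5, 295 ± 83.4, 348 ± 82.6 and 364 ± 71.4 TPM. Ccnd1 supplied 43.0% to 52.2% of the D cyclin TPM in the 8 group means. Ccnd2 went from 17.5% on WT day 7 to 27.0% on WT day 8, and from 13.6% to 26.3% in KO, while Ccnd3 went from 33.7% to 22.02% in WT and from 42.6% to 21.5% in KO.

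The INK4 sum was 35.1 ± 5.15 TPM on WT day 7, 25.7 ± 2.35 TPM on day 8, and 51.1 ± 7.61 and 71.1 ± 12.2 TPM on days 9 and 10. In KO the INK4 sums were 45.8 ± 13.7, 30.2 ± 11.4, 57.2 ± 14.6 and 71.9 ± 24.9 TPM. Cdkn2d made up 68.3% to 79.4% of it and Cdkn2c 15.3% to 28.2%, while Cdkn2b reached 9.93% on WT day 8 and 8.77% on KO day 8. The ratio of D cyclin to INK4 TPM was 1.88 ± 0.25 on WT day 7 and 9.33 ± 0.58 on WT day 8, then 4.90 ± 0.29 and 3.47 ± 0.64 on days 9 and 10. In KO it was 1.80 ± 0.36, 9.98 ± 0.95, 6.16 ± 0.83 and 5.38 ± 1.70. The KO ratio of day 9 lay at 5.31 to 6.97 and that of WT at 4.70 to 5.24. On day 10 the ranges were 4.20 to 7.33 and 2.98 to 4.19, and on both days they barely parted. These ratios were not tested, and they set mRNA against mRNA rather than protein against protein.

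Within CIP/KIP, the inhibitor outside the list, Cdkn1a, which encodes the p53 target p21, supplied most of the TPM, from 77.6% of the family on KO day 7 to 96.1% on KO day 8. Cdkn1c went from 10.6% of it on WT day 7 to 1.65% on WT day 10, and from 13.4% to 0.64% in KO. These shares also hold the change of Cdkn1a, which rose 2.47-fold in WT and 2.82-fold in KO from day 7 to day 8 (log2 1.303, SE 0.13 and 1.498, SE 0.13, edgeR adjusted p = 1.0e-07 and 2.1e-08). From day 8 to day 9 Cdkn1a fell by log2 0.53 in WT (SE 0.12, edgeR adjusted p = 0.020). This WT call was lost in 3 of 14 alternatives, over which the adjusted p ran from 0.00052 to 0.22. The same KO step, log2 -0.36 (SE 0.12, edgeR adjusted p = 0.115), was not called with all libraries and was called in 1 of 14 alternatives. Cdkn1a was at 230.4 TPM on WT day 7 and 409.6 TPM on WT day 10, and at 215 and 523 TPM in KO. Cdkn1c by its own TPM went from 30.5 ± 7.37 to 7.69 ± 4.43 in WT and from 37.2 ± 10.3 to 3.63 ± 1.36 in KO. Cdkn1b and Cdkn1c had like levels per length on day 7, with a ratio of 0.91 ± 0.23 in WT and 0.69 ± 0.12 in KO. By day 10 the ratio was 6.21 ± 5.05 in WT and 10.2 ± 6.73 in KO.

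**Figure D3:**
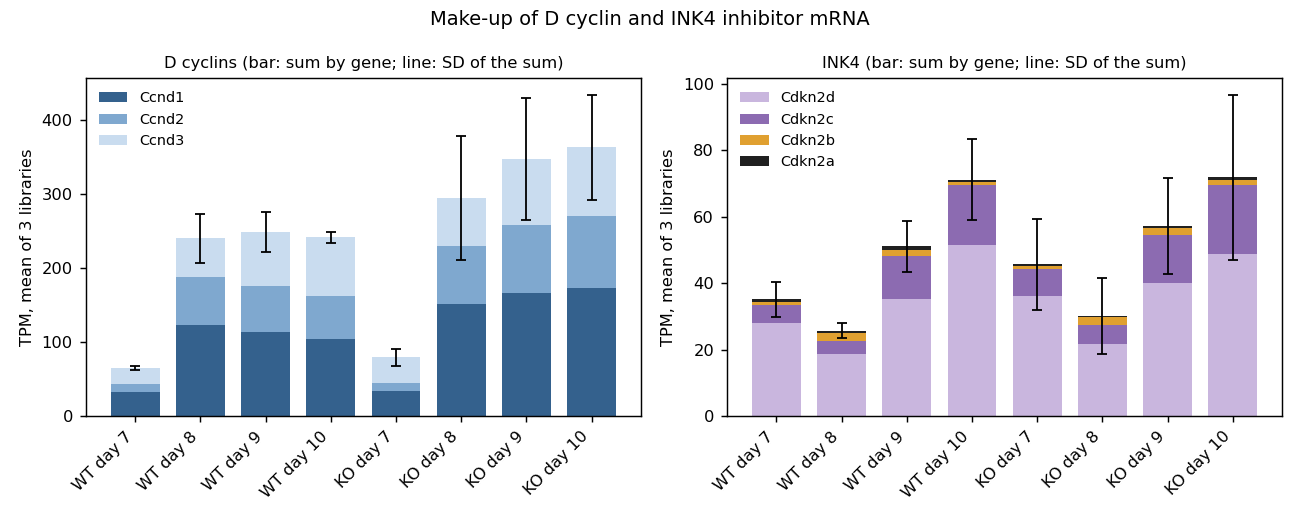
Mean TPM of the D cyclins (left) and the INK4 inhibitors (right) in each group, with stacked bars for the genes and a line for the SD of the sum over 3 mice. D cyclin TPM stands at 65.4 on WT day 7 and 240 on WT day 8, whereas INK4 TPM is lowest on day 8, at 25.7 in WT and 30.2 in KO.

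The libraries labelled KO were compared with those labelled WT on each day, although Arpc4 itself differed little between them. In edgeR, 0 of 9 members were called on days 7, 8, 9 and 10, against 1.45%, 0.00688%, 0.00688% and 0.0138% of all genes. Members with an unadjusted p under 0.05 numbered 1, 0, 2 and 4 on those days, among 2280, 859, 1185 and 1061 genes in all. DESeq2's Wald test called 2 members, both on day 10. By CPM, groups without overlap numbered 4, 0, 2 and 3 of 9 members, where 26.2%, 9.39%, 14.1% and 10.4% of all genes had none.

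The 2 members with the lowest adjusted p on day 10 were Ccnd1 and Ccnd2. Ccnd1 measured 135, 161 and 160 CPM on WT day 10 and 281, 260 and 176 CPM on KO day 10, so that each KO library stood above each WT library. The KO to WT fold was 1.57 (log2 0.65, SE 0.15), which did not pass in edgeR (adjusted p = 0.22) and did in DESeq2's Wald test (adjusted p = 0.025). Ccnd2 measured 173, 183 and 153 CPM on WT day 10 and 293, 286 and 214 CPM on KO day 10, again without overlap. Its fold was 1.56 (log2 0.64, SE 0.16, edgeR adjusted p = 0.27, and 0.043 in DESeq2's Wald test). Without the libraries of mouse 68, whose day 10 library was the lowest of the 3 for both genes, edgeR called both, with adjusted p of 0.030 for Ccnd1 (log2 0.83) and 0.033 for Ccnd2 (log2 0.77). Over the 14 alternatives, the adjusted p ran from 0.015 to 0.999 for Ccnd1 and from 0.025 to 0.99 for Ccnd2.

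The same 2 genes stood apart on day 9, when Ccnd1 measured 179, 159 and 159 CPM in WT and 225, 276 and 195 CPM in KO (log2 0.49, SE 0.15, edgeR adjusted p = 0.31). Ccnd2 measured 208, 174 and 174 CPM in WT and 248, 292 and 222 CPM in KO on that day (log2 0.45, SE 0.16, edgeR adjusted p = 0.39). On day 8 the genotypes overlapped for both genes, with log2 differences of 0.24 (SE 0.15) and 0.19 (SE 0.16). On day 7 the CPM of Ccnd2 was lower in all 3 KO libraries than in any WT library, by a log2 difference of -0.15 (SE 0.17, edgeR adjusted p = 0.71). By TPM these day 7 groups overlapped, at 11.52, 11.87 and 8.82 in KO and 11.29 to 11.46 in WT.

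Cdkn2b, at 0.43, 0.27 and 0.28 CPM in WT and 0.89, 0.56 and 0.44 CPM in KO on day 10, was the third without overlap (log2 0.94, SE 0.30, edgeR adjusted p = 0.39). With all libraries Cdkn1c had the largest log2 difference by size on day 10, at -1.15 (SE 0.52, edgeR adjusted p = 0.64, 95% interval -2.16 to -0.13), with overlapping groups. Over 14 alternatives it ran from -1.91, without the library with high Ddx3y in each group, to -0.63, without mouse 65, and that of Cdkn2b from 0.52 to 1.25. On day 7, Ccnd3 was higher in KO without overlap (log2 0.58, SE 0.23, edgeR adjusted p = 0.21), as was Cdkn2c (log2 0.54, SE 0.35, edgeR adjusted p = 0.48). Cdkn1b and Cdkn2d overlapped between the genotypes on each day, with log2 differences from -0.26 to 0.30. On day 10 the 95% intervals of these genotype differences were -0.66 to 0.13 for Cdkn1b, -0.61 to 0.25 for Cdkn2d and -0.30 to 0.57 for Ccnd3.

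**Figure D4:**
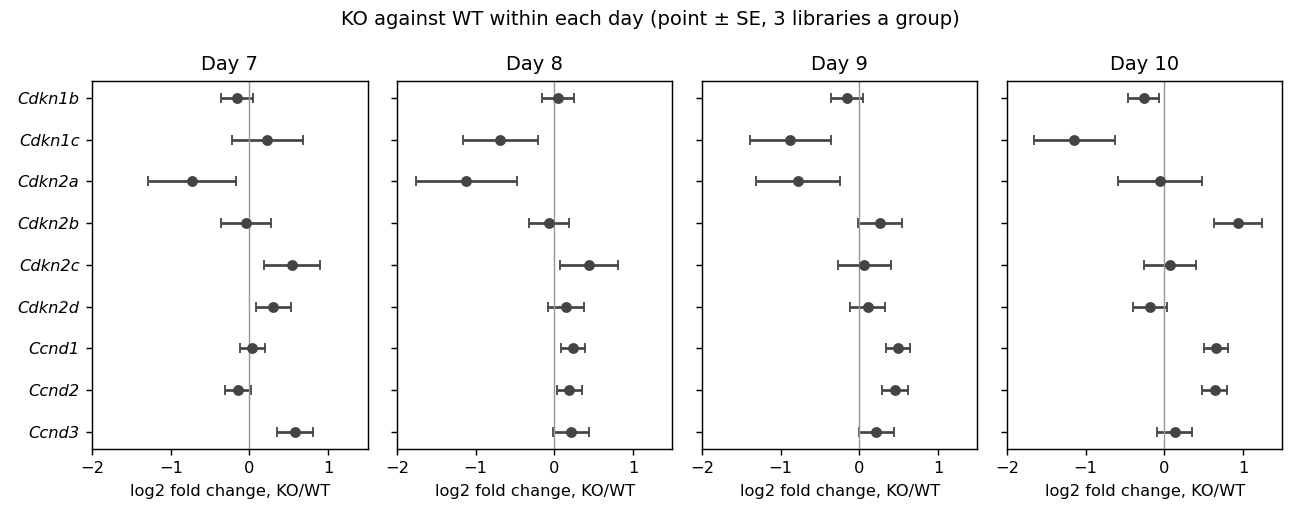
Log2 fold change of KO against WT (horizontal axes, point with SE) for the 9 genes (rows) on each day (panels). No difference was called in edgeR. Ccnd1 and Ccnd2 lie at 0.65 and 0.64 on day 10 with SE of 0.15 and 0.16, and Cdkn1c lies at -1.15 with an SE of 0.52.

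The change over time was also compared between the genotypes. In edgeR, 0 of the 8 members tested had a called difference in the change from day 7 to day 8 or from day 7 to day 10, where 0.0275% and 0.0619% of all genes did. Members with an unadjusted p under 0.05 numbered 0 and 3, and DESeq2's Wald test called none. The lowest adjusted p was that of Ccnd2 from day 7 to day 10 (log2 0.79, SE 0.23, edgeR adjusted p = 0.50), followed by Ccnd1 (log2 0.61, SE 0.22, edgeR adjusted p = 0.63). For Cdkn1c the difference was log2 -1.37 (SE 0.69), given without a test, and -2.22 without the library with high Ddx3y in each group.

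Of the kinases and cyclins that work beside the members, a list of 6 genes, most rose on WT day 8. In WT 5 of 6 were called higher and 0 lower (median log2 0.75, against -0.0038 over all genes), and in KO 3 of 6 were higher and 0 lower (median 0.55, against 0.0018). Of all genes, 21.5% were higher and 22% lower in WT and 21.1% and 20.9% in KO in that step. Genes named from the lists for the day steps were chosen after their values were seen. Cdk6, the partner of D cyclins, rose in both genotypes (log2 0.53, SE 0.13 in WT and 0.64, SE 0.13 in KO). Ccne1 and Ccne2, which encode the E cyclins that activate Cdk2, rose as well, with log2 0.97 and 1.62 in WT and 0.83 and 1.05 in KO. From day 8 to day 9 and from day 9 to day 10, 0 of the 6 were called in either genotype, against 5.4% and 3.6% of all genes in WT and 2.33% and 0.0963% in KO, although the median log2 from day 8 to day 9 was 0.68 in WT and 0.54 in KO. Ccna2, which encodes the S-phase cyclin A2, measured 28.9 ± 3.05 CPM on WT day 8 and 67.1 ± 9.01 CPM on WT day 9, without overlap (log2 1.215, SE 0.40, edgeR adjusted p = 0.074).

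Of 13 genes of the retinoblastoma and E2F family, 6 were called higher and 2 lower in WT from day 7 to day 8 (median log2 0.19, against -0.0038 over all genes), and 5 higher and 1 lower in KO (median 0.27, against 0.0018). Of all genes, 21.5% were higher and 22% lower in WT and 21.1% and 20.9% in KO, so the KO share called was near that of all genes. E2f2, an activator E2F, fell in both genotypes (log2 -0.94, SE 0.32 in WT and -1.15, SE 0.31 in KO), as Cdkn2d did. Among 11 genes for the turnover of inhibitors and D cyclins, 1 was higher and 3 lower in WT (median log2 -0.051), and 2 higher and 3 lower in KO (median 0.0077), near the 43.4% and 42% of all genes called in that step. Skp2, which marks p27 for degradation, rose by log2 0.61 (SE 0.19) in WT and 0.63 (SE 0.19) in KO. Fbxo31, a ligase component that acts on cyclin D1, fell by log2 0.61 (SE 0.13) and 0.63 (SE 0.13). Rnf123 and Ambra1 of the same list were also called lower in both genotypes, and Skp1a was called higher in KO alone. Mean CPM of Rnf123 was 51.0 on WT day 7 against 41.4 on WT day 8, with KO means of 48.4 and 39.4. The called genes of this list thus did not go 1 way, and turnover of the proteins was not tested.

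Among 11 measured upstream regulators, 4 were called higher and 6 lower in WT on day 8 (median log2 -0.26, against -0.0038 over all genes), and 4 higher and 5 lower in KO (median -0.17, against 0.0018), where 43.4% and 42% of all genes were called in either direction. Myc, a transcription factor that acts on Ccnd2, rose by log2 1.61 (SE 0.12) in WT and 1.68 (SE 0.13) in KO. Csf2rb, the shared beta chain of the GM-CSF receptor, rose by log2 0.74 (SE 0.10) and 0.76 (SE 0.10), and Stat5a, which signals from it, by 0.48 (SE 0.15) and 0.51 (SE 0.15). Its paralog Stat5b, which was at a higher CPM, fell by log2 0.53 (SE 0.07) in WT and 0.46 (SE 0.07) in KO, from 109 to 75.4 CPM and from 108 to 78.5 CPM. Foxo1 and Foxo4, factors known to act on Cdkn1b, fell by log2 0.69 (SE 0.12) and 0.57 (SE 0.10) in WT, and by 0.53 (SE 0.12) and 0.53 (SE 0.10) in KO. Foxo3, which was at a higher CPM than either, was called lower in WT (142 to 119 CPM) and not in KO (137 to 121 CPM). Smad3 and Cbx7 were called lower in both genotypes in this step, Ezh2 higher in WT alone and Bmi1 higher in KO alone. In all 4 of these lists, 0 genes were called between the genotypes on any day in edgeR, where the shares of all genes were at most 1.45%, so these counts do not set the lists apart.

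The proliferation list of 12 genes, such as Mki67 and the helicase subunits Mcm2 and Mcm5, rose in part over 2 WT steps. It had 8 genes called higher and 1 lower from day 7 to day 8 (median log2 1.10, against -0.0038 over all genes) and 6 higher and 0 lower from day 8 to day 9 (median 1.20, against -0.00014). Of all genes, 21.5% were higher and 22% lower in the first of these WT steps and 3.06% were higher in the second. In KO 2 were higher and 1 lower in the first step (median 0.33) and 0 in the second (median 1.06), where 42% and 2.33% of all genes were called. From day 7 to day 10, 11 of the 12 were called higher in each genotype (median log2 2.64 in WT and 1.71 in KO), against 18.9% and 19.7% of all genes. Pcna, a DNA clamp, was the gene that fell in the first step in both genotypes. The median log2 CPM of the list was 3.45 ± 0.24 on WT day 7 and 5.53 ± 0.23 on WT day 10, and 3.95 ± 0.48 and 5.49 ± 0.59 in KO. Between the genotypes 0 of the 12 were called on any day in edgeR, against 1.45% of all genes on day 7 and at most 0.0138% on later days. The median log2 difference of KO from WT was 0.93 on day 7 (against -0.014 over all genes), 0.18 on day 8, 0.047 on day 9 and 0.034 on day 10. The median difference in change from day 7 to day 10 was -0.92, against 0.0044 over all genes, with 0 called.

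The neighbours of Cdkn1c in its imprinted cluster changed in both directions. Of 13 measured neighbours, 5 were called higher and 2 lower from day 7 to day 8 in WT (median log2 0.14), and 2 higher and 2 lower in KO (median -0.071), against the shares of all genes given for that step. From day 7 to day 10, 1 was called higher and 1 lower in WT, against 18.9% and 18.1% of all genes, and 1 higher and 2 lower in KO, against 19.7% and 17.1%. On day 7, Kcnq1ot1, the long noncoding RNA that silences Cdkn1c on the paternal copy, was higher in KO than in WT (log2 1.40, SE 0.34, edgeR adjusted p = 0.043). On the same day the neighbour Cars, a cysteine tRNA synthetase, was lower in KO (log2 -0.65, SE 0.09, edgeR adjusted p = 0.00035). Cdkn1c itself was at log2 0.22 (SE 0.45) in that comparison, and 0 neighbours were called between the genotypes on days 8, 9 and 10. Mtap, the measured neighbour of Cdkn2a and Cdkn2b, rose on day 8 by log2 0.81 (SE 0.09) in WT and 0.94 (SE 0.09) in KO.

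The levels of the members were correlated with those of other genes over the 24 libraries, which share culture days and so are not independent. Ccnd1 and Ccnd2 were nearest to each other among 10596 genes ranked, with a Pearson r of log2 CPM of 0.985, and both had Cad, an enzyme of pyrimidine synthesis, among their 3 nearest. Socs2, a STAT5 target, was near Ccnd2 at 0.979. The nearest gene to Ccnd3 was Mcm5, a subunit of the replicative helicase, at 0.983. Cdkn2c and Cdkn2d correlated at 0.898, and their nearest genes were Iqgap3 at 0.975 and E2f2 at 0.965. Cdkn1c was nearest to Itgb3, which encodes an integrin beta chain, at 0.968, and correlated with Ccnd3 at -0.867. Cdkn1b was nearest to Clec2i at 0.937, Cdkn2b to Ets2 at 0.909 and Cdkn2a to Arl2 at 0.768. These values include the differences between days. After group means were subtracted, r over the same libraries was 0.768 for Ccnd1 with Ccnd2, 0.817 for Cdkn2c with Cdkn2d and -0.459 for Cdkn1c with Ccnd3, and the highest of the 36 member pairs was Cdkn2c with Ccnd3, at 0.909.

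For 4 of the 9 genes the lowest KO library on each day was the one with high Ddx3y, which has mouse number 64, 68, 64 and 67 from day 7 to day 10. It was the lowest of the 3 on all 4 days for Cdkn1b, Cdkn2c, Cdkn2d and Ccnd3, a pattern noticed after values were seen. It occurred for 9.67% of all genes tested in KO, and for the other 5 members that library had no constant rank. In WT the same rank on all days held for 2.84% of genes and for 0 of the 9 members. That KO library also had the lowest proliferation median on each day: log2 CPM of 3.53, 3.54, 4.62 and 4.83 from day 7 to day 10. The other KO libraries were at 3.84 and 4.48, 4.06 and 4.87, 5.49 and 5.73, and 5.69 and 5.96 on those days. Without the library with high Ddx3y in each group, 0 members were called between the genotypes, 8 in the WT day steps and 7 in the KO day steps, where 6 were called with all libraries. The added call was Cdkn2d from day 8 to day 9 (log2 0.79, edgeR adjusted p = 0.029).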

How the data were processed

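Bone-marrow-derived dendritic cells of 8 groups (2 genotypes, 4 days, 3 mice each) were measured by RNA sequencing. The authors deposited raw counts per gene, whole numbers for 55487 genes, and TPM per gene, which are scaled by gene length and library total, with a table of symbols. The submitters' processing notes name mm10, FastQC 0.11.9, STAR 2.6.1 and DESeq2 1.22.2 without roles, and the counter and its strand setting are not given in the sources used here. Positions are those of GENCODE M21 on GRCm38, in which 55094 of the identifiers had the same version and 55394 matched without it. Promoters are RefSeq's (GRCm38.p6).

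Counts were fitted with edgeR 4.0.16 in R 4.3.3 (filterByExpr, TMM, 1 coefficient per group, quasi-likelihood test, 16 residual degrees of freedom). The 8 groups shared 1 estimate of spread per gene, so an SE does not measure the spread of KO or WT alone. KO libraries of a group differed more from each other. Chi-square per degree of freedom between 2 libraries of a group was 7.10 to 24.5 in WT and 13.0 to 125 in KO. Of 28655 genes with a count, 14535 were kept, and two-sided p-values were Benjamini-Hochberg adjusted over them. SEs were computed by dividing the log2 fold change by the root of F, and 95% intervals are 1.96 SE to each side. Family sums, shares and ratios used TPM. Counts are PCR-amplified reads without molecular identifiers, and whether mice are the source of separate cultures rests on the mouse numbers. The method was run on simulated counts of independent libraries, with the same spread set for all genes and groups. Those counts held no mouse effect and no wider spread in KO, so they do not test the method on these features.

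The members and all lists were chosen with earlier results of these data known. Named are all 9 members and Cdkn1a, the 3 genes of highest correlation with each member among genes above an average log2 CPM of 1 (without predicted genes and those named by clone), and at most 3 list genes per comparison past the threshold between the genotypes or in their changes over time. Genes named from the lists for day steps fall outside this rule.

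WT mice are numbered 63, 65 and 66 and KO mice 64, 67 and 68 on each day. After group means were subtracted, libraries with 1 number correlated above 0.1 in 18 of 18 WT pairs (mean r 0.49) and in 7 of 18 KO pairs (mean r -0.0047, from -0.80 to 0.80). The model with mouse as a block was therefore an alternative. Others were DESeq2 (1.42.0) size factors and Wald test, no filter, only the groups compared, limma (3.58.1) on log2(TPM + 1), an Xist covariate, leaving out each mouse in turn, and, chosen after seeing the data, leaving out the library with high Ddx3y in each group. Leaving out a KO mouse removed the libraries of 1 mouse number, which may not come from 1 animal.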

Additional observations from a re-analysis of the deposited data

Results flagged for a closer look

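By CPM, the difference of Ccnd2 between the genotypes had opposite signs on different days with no overlap between the groups' libraries. Its log2 difference, KO minus WT, was -0.149 on day 7, when all 3 KO libraries lay below the WT libraries. It was 0.453 on day 9 and 0.641 on day 10, when all 3 KO libraries lay above them. By TPM the day 7 groups overlapped, at 11.52, 11.87 and 8.82 in KO and 11.29 to 11.46 in WT. The lack of overlap on day 7 thus depended on the scale, whereas the groups of days 9 and 10 stood apart by TPM too. The difference between days 7 and 10 was tested in edgeR and did not pass (adjusted p = 0.50), and that between days 7 and 9 was not tested.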

How the results depend on the processing

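The number of members called between KO and WT over the 4 days, 0 with all libraries, was 2 in DESeq2's Wald test, 2 with no filter on low counts and 0 to 2 over the models that left out 1 mouse (2 without mouse 68), in each case Ccnd1 and Ccnd2 on day 10. The number called in the WT day steps, 8 with all libraries, was 5 in limma on log2(TPM + 1) and 5 to 10 with 1 mouse left out (5 without mouse 65 and without mouse 66). The number called in the KO day steps, 6 with all libraries, was 5 to 11 with 1 mouse left out (11 without mouse 67). Fits to only the groups compared called 12 in the WT steps and 5 in the KO steps. No difference in change over time was called for a member under any alternative run, and no called change of a member reversed. With mouse as a replicate block the calls were 0 between genotypes, 8 in WT steps, 7 in KO steps and 0 in changes over time, the added one being Cdkn2c on day 9 (adjusted p = 0.0499), and it changed no other call. In the day steps and changes over time the block was 1 coefficient per mouse, and between genotypes it was a consensus correlation in limma-voom (0.0046). The KO numbers in it are in doubt. Limma on TPM moved the median log2 change of all genes to 0.165 in WT and 0.172 in KO for the first step and to 0.21 and 0.249 for day 10 against day 7.

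Over all genes, calls between the genotypes numbered 211, 1, 1 and 2 on days 7 to 10 with all libraries, and ranged over the alternatives from 11 to 523, 1 to 37, 1 to 98 and 1 to 80. Calls ranged from 17 to 2123 for WT day 9 against day 8 (785 with all libraries), from 0 to 898 for the same KO step (338), from 0 to 1061 for WT day 10 against day 9 (523) and from 0 to 2099 for the same KO step (14). The causes of these shifts were not tested. Cdkn2a and Cdkn2b, at 1 to 15 and 7 to 39 counts per library, are limited by depth.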
